A study of Mus musculus with 4 samples.

Results

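The Snail, Twist, Zeb and Prrx genes Snai1, Snai2, Twist1, Twist2, Zeb1, Zeb2, Prrx1 and Prrx2 were followed in mouse lung fibroblasts from mutant and wild-type mice. These 8 genes were taken by name, each from the array row whose annotation gives that symbol alone, and all 8 were found among the 19938 genes of the table. RNA came from primary fibroblasts that grew out of collagenase-digested lungs of mice aged 3 to 4 weeks, and it was read on 4 Affymetrix arrays. Samples A and B of the mutant group carried a mutant allele, and samples A and B of the WT group were wild type. All 4 were kept in medium with serum and were left untreated. The titles give 1 number for each genotype and do not say what it stands for. Whatever differs between the numbers cannot be told apart from the effect of genotype. The growth protocol describes the cells as myofibroblasts, checked by immunofluorescence. What drives the mutant allele, and whether A and B were separate cultures, is not given in the sources used here, so the p-values measure only the spread between A and B, which may be technical.

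These factors are repressors and activators of transcription that switch cells towards a mesenchymal state, in embryos and in tumours. Snai1 and Snai2 (Slug) are zinc-finger repressors that bind E-box sequences, and Zeb1 and Zeb2 are repressors with zinc fingers around a homeodomain that bind similar sequences. Twist1 and Twist2 are basic helix-loop-helix proteins that pair with E proteins, and Prrx1 and Prrx2 are paired-related homeodomain proteins of limb, face and connective-tissue mesenchyme. Fibroblasts are themselves mesenchymal and normally express many of these genes.

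Values are log2 expression per array row, as deposited. The column medians were 6.24 and 6.26 in mutant and 5.90 and 5.91 in WT, so the groups do not share a scale, and the median difference of all genes, mutant minus WT, was 0.26 as deposited and -0.00375 after quantile normalization of the 4 columns. A gene is therefore said to have risen or fallen where limma called it in that direction on both scalings, at an adjusted p under 0.05. Limma called 62.1% of all genes on the deposited values, and on both scalings 22.4% rose and 11.5% fell. Shares of members and of the gene lists below are to be read against those figures. Groups that do not overlap were common, found for 16553 of the 19938 genes. Of 10 fibroblast markers, 9 lay above the dim level of 5.15 in every sample, with a list mean of 10.45 in both mutant samples and 10.7 in both WT samples. Of 10 epithelial markers 3 lay above it in every sample, Sftpb, Nkx2-1 and Ager, with list means of 5.25 to 5.32 in mutant and 4.85 in WT. Epcam and Cdh1, which define epithelium, stood at 4.67 to 4.82 and 4.68 to 5.29. Of the endothelial and leukocyte markers 2 of 7 and 2 of 8 lay above the dim level in every sample. So did 5 of 7 smooth muscle and pericyte markers, 3 of 5 mesothelial markers and 1 of 2 measured Schwann cell markers. Some markers lay above it in both samples of 1 group and in neither of the other. These were Lyz2, Csf1r and Fap in WT, and Sftpc, Cdh1, Foxj1, Tie1 and Des in mutant. Lyz2 read 4.56 and 4.70 in mutant and 6.01 and 6.20 in WT. In such bulk RNA fewer cells of a type and less RNA per cell cannot be told apart.

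The start regions of Snai1, Twist1 and Twist2, the members that moved and have a window in the RefSeq promoter table (build GRCm38.p6), are shown because Snail and Zeb proteins act through E-boxes. Each window runs from 250 bases before to 50 bases after the start site, on the plus strand, at chr2:167537945-167538244 for Snai1, chr12:33957421-33957720 for Twist1 and chr1:91801211-91801510 for Twist2. Capitals mark every CANNTG, the E-box with any middle bases, which reads alike on both strands.
Snai1: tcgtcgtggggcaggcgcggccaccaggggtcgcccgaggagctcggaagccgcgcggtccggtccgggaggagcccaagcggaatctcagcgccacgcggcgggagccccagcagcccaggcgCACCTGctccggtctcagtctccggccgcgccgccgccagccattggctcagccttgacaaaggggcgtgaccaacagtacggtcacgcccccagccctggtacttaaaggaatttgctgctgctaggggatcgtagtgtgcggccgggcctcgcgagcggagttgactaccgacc
Twist1: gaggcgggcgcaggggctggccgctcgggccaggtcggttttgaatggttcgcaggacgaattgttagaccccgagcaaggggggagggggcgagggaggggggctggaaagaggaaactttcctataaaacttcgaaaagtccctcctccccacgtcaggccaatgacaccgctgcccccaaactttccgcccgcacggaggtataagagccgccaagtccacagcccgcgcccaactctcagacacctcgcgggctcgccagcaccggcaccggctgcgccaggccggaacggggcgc
Twist2: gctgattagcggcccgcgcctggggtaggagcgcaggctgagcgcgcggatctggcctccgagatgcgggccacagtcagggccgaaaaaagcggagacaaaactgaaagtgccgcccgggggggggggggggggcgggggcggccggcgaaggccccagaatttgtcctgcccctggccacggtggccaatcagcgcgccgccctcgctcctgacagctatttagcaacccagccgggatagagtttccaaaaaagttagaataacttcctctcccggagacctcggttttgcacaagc

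The Snai1 window held 1 E-box, CACCTG, whose first base lies at -126 from the start site. The windows of Twist1, Twist2, Prrx1 and Prrx2 held 0 matches to CANNTG, which occurs in 72.3% of the 32851 windows of the table, while CACCTG or its complement CAGGTG occurs in 20.2%. TGANTCA, the AP-1 sequence, was found 0 times in these 5 windows and occurs in 7.81% of all windows. Of 4 windows listed for Zeb2, 1 held 2 matches to TGANTCA, and all 4 held 0 matches to CANNTG. These matches describe letters and no binding was measured.

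Both Snail genes were higher in mutant fibroblasts, and Snai2 had the largest difference of the 8 members. Snai2, which represses epithelial genes and marks neural crest and mesenchyme, read 10.44 and 10.46 in mutant A and B against 9.31 and 9.20 in WT A and B. The groups lay 1.13 apart, far wider than the gap between samples of a group. Snai2 thus rose by 1.195 ± 0.07 (log2; each ± here is the moderated SE from limma, with n = 2 in each group; limma adjusted p = 0.000511), a 2.29-fold higher level, and by 1.18 after quantile normalization. Snai1, the founding Snail repressor, read 8.65 and 8.80 in mutant and 7.78 and 7.90 in WT, again with no overlap. It rose by 0.885 ± 0.09 (limma adjusted p = 0.00122), a 1.85-fold higher level, and by 0.75 after quantile normalization. Genes within 0.5 of the mean of Snai1 had a median difference of 0.16 and those near Snai2 one of 0.045, so neither rise matched the shift of genes of like level. After quantile normalization the size of the Snai2 difference exceeded that of 97.8% of all genes and that of Snai1 exceeded 92.5%. Without mutant B, which leaves 1 mutant sample, the Snai1 difference was 0.81 and that of Snai2 was 1.185.

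The Twist paralogs moved in opposite directions. Twist1, needed for cranial and limb mesenchyme, read 8.84 and 8.75 in mutant and 9.12 in both WT samples, and fell by 0.325 ± 0.07 (limma adjusted p = 0.0112), a level 1.25-fold higher in WT. Twist2 (Dermo1), its close relative in dermis and other connective tissue, read 10.03 and 10.15 in mutant and 9.69 and 9.75 in WT, and rose by 0.37 ± 0.08 (limma adjusted p = 0.0097), a 1.29-fold higher level. Neither gene's groups overlapped. After quantile normalization Twist1 stood at -0.42 and Twist2 at 0.35, and cyclic loess gave -0.41 and 0.36. With each column centred on its median Twist1 was at -0.63 and still called, but Twist2 was at 0.065 with a limma adjusted p of 0.513. The rise of Twist2 thus depends on the scaling. Genes of like level had a median difference of 0.085 for Twist1 and 0.04 for Twist2 on the deposited values. Without mutant B the difference was -0.28 for Twist1 and 0.31 for Twist2.

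**Figure D1:**
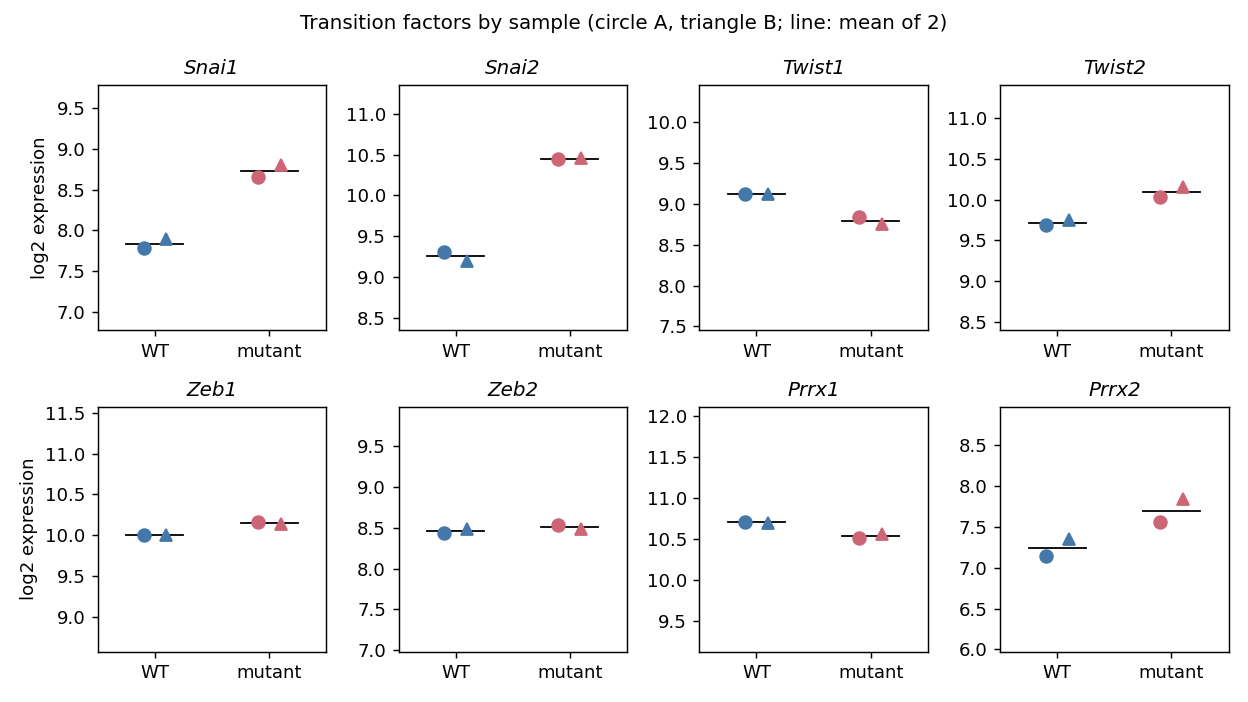
Deposited log2 expression (y axis, each panel spanning the same range) of the 8 transition factors in WT and mutant samples, circles for A, triangles for B and lines for the mean of 2 samples. Snai1, Snai2 and Twist2 lie higher in mutant, Twist1 lies lower, and the Zeb2 values of the groups meet at 8.48.

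The Zeb genes did not pass the test on either scaling. Zeb1, which represses E-cadherin and polarity genes, read 10.16 and 10.14 in mutant and 10.00 in both WT samples. The groups did not overlap, but the difference of 0.15 ± 0.06 was small (limma adjusted p = 0.0928 as deposited, 0.113 after quantile normalization), and it was -0.155 on median-centred columns. Zeb2 (Sip1), which binds activated SMAD proteins, read 8.53 and 8.48 in mutant and 8.44 and 8.48 in WT, so the groups shared the value 8.48. Its difference was 0.045 ± 0.07 (limma adjusted p = 0.583), with -0.08 after quantile normalization, -0.09 after cyclic loess and -0.26 on median-centred columns, where limma called it lower (adjusted p = 0.0295). Zeb2os, a non-coding RNA from the other strand of the Zeb2 locus, read 6.33 and 6.50 in mutant and 5.86 and 5.94 in WT. It was called on the deposited values only, at 0.515 ± 0.09 (limma adjusted p = 0.00497, and 0.146 after quantile normalization).

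The Prrx genes were not called on both scalings. Prrx1, which marks fibroblast precursors of the body wall and limb, read 10.51 and 10.56 in mutant and 10.71 and 10.70 in WT. All mutant values lay below all WT values, at -0.17 ± 0.07 (limma adjusted p = 0.0707), with -0.11 after quantile normalization and -0.475 on median-centred columns, where it was called (limma adjusted p = 0.0023). Prrx2, its paralog, read 7.56 and 7.84 in mutant and 7.14 and 7.35 in WT, the widest spread between A and B of the 8 members, with SDs of 0.198 and 0.1485. Prrx2 was called higher on the deposited values, at 0.455 ± 0.12 (limma adjusted p = 0.0247), but stood at 0.23 after quantile normalization (limma adjusted p = 0.171). Genes of like level had a median difference of 0.205 on the deposited values.

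**Figure D2:**
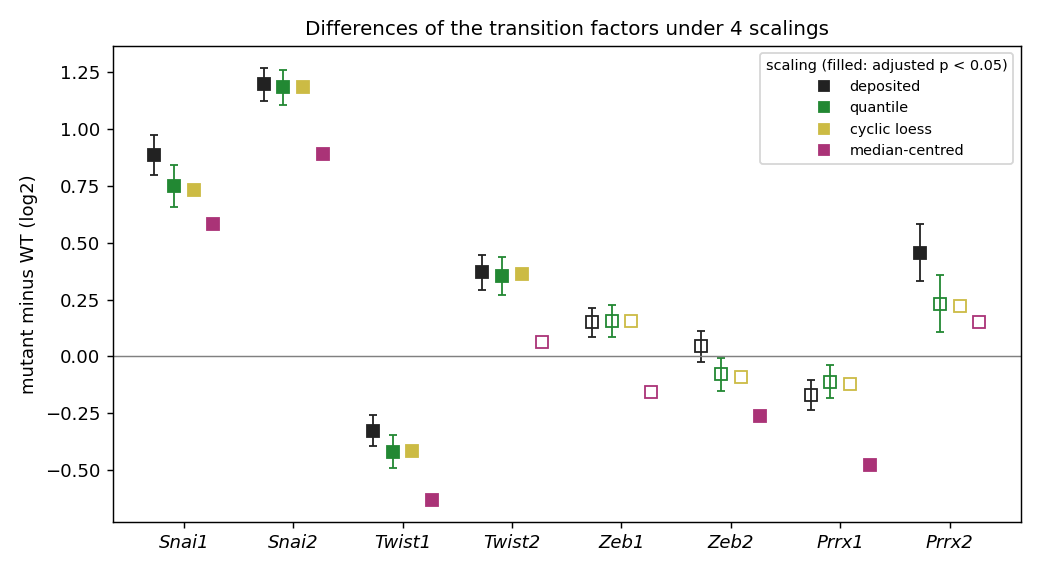
Difference mutant minus WT (y axis, log2) of each transition factor under 4 scalings, squares filled where limma's adjusted p was under 0.05, with bars of 1 moderated SE for the deposited and quantile values. Snai1, Snai2 and Twist1 are filled under all 4, Twist2 under all but median centring, Prrx2 on the deposited values only, Zeb2 and Prrx1 on median-centred columns only, and Zeb1 under none.

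Of the 8 members, 3 rose, 1 fell and 4 did not pass on both scalings, beside 22.4% of all genes that rose and 11.5% that fell. On the deposited values 4 were called higher and 1 lower, so 5 of 8 were called beside 62.1% of all genes. The median difference of the members was 0.26 as deposited, equal to that of all genes, and 0.19 after quantile normalization, where that of all genes was -0.00375. Of the members 7 had groups that did not overlap, as did 16553 of the 19938 genes. In fits lacking either WT sample, limma called 0 genes, so that every call given here rests on having both, with smallest adjusted p of 0.0552 and 0.053 and with 9846 and 10022 genes at an unadjusted p under 0.05. The lone WT sample is then assumed to vary like the mutant samples.

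Differences between paralogs within an array are free of a shift common to all genes of a column, though not of one that varies with level. Twist2 minus Twist1 was 1.19 and 1.40 in mutant and 0.57 and 0.63 in WT, a change of 0.695, and of 0.77 after quantile normalization. Prrx2 minus Prrx1 was -2.95 and -2.72 in mutant and -3.57 and -3.35 in WT, a change of 0.625 that shrank to 0.34 after quantile normalization. Snai2 minus Snai1 went from 1.53 and 1.30 in WT to 1.79 and 1.66 in mutant, a change of 0.31, and of 0.43 after quantile normalization. Zeb1 minus Zeb2 changed by 0.105, and by 0.235 after quantile normalization. The deposited values of each pair did not overlap between groups, and the order of the Prrx and Snail changes depends on the scaling. Such separation was common among single genes, at 16553 of 19938, and its share over other gene pairs was not computed. With 2 samples a group the exact permutation test cannot give a two-sided p below 0.333, which all 4 pairs reached. The offsets themselves compare different probes and carry no level.

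The profile closest to that of Snai2 over the 4 samples, by Euclidean distance between values centred on each gene's mean, was that of the microRNA gene Mir365-2 at 0.0141, among 13823 genes with a mean above the dim level. Fa2h, a fatty acid hydroxylase gene, followed at 0.0412, then the stanniocalcin gene Stc1 at 0.0424, Fhit at 0.0469 and Plekhh2 at 0.0477. Their differences ran from 1.165 to 1.195. Mir365-2 and Fa2h lay below the dim level in WT, at 4.92 and 4.81 and at 4.90 and 4.83, and passed the filter through their mutant values. Over 4 samples such likeness mainly states an equal group difference.

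E proteins are the dimer partners of Twist, and Id proteins are helix-loop-helix proteins without a DNA-binding region that hold E proteins away from DNA. All 7 measured genes of this kind passed on both scalings, 6 rising and 1 falling. The E proteins Tcf12, Tcf4 and Tcf3 read 10.50 and 10.55, 10.34 and 10.41, and 9.88 and 9.89 in mutant. Their WT values were 9.57 and 9.58, 9.49 and 9.52, and 9.17 and 9.15. The groups did not overlap, as was so for 16553 of the 19938 genes. Tcf12 rose by 0.95 ± 0.07, Tcf4 by 0.87 ± 0.07 and Tcf3 by 0.725 ± 0.06 (limma adjusted p = 0.000652, 0.000796 and 0.000996). Id3 read 8.38 and 8.34 in mutant and 6.69 and 6.79 in WT, a rise of 1.62 ± 0.07 (limma adjusted p = 0.000277). Id1 read 8.45 and 8.56 against 7.15 and 7.27 and rose by 1.295 ± 0.08 (limma adjusted p = 0.000544), and Id2 rose by 0.685 ± 0.10. Id4 went the other way, from 8.08 and 8.24 in WT to 6.54 and 6.27 in mutant, a fall, with a difference of -1.755 ± 0.12 (limma adjusted p = 0.000591). The median of the 7 was 0.87 as deposited and 0.855 after quantile normalization.

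**Figure D3:**
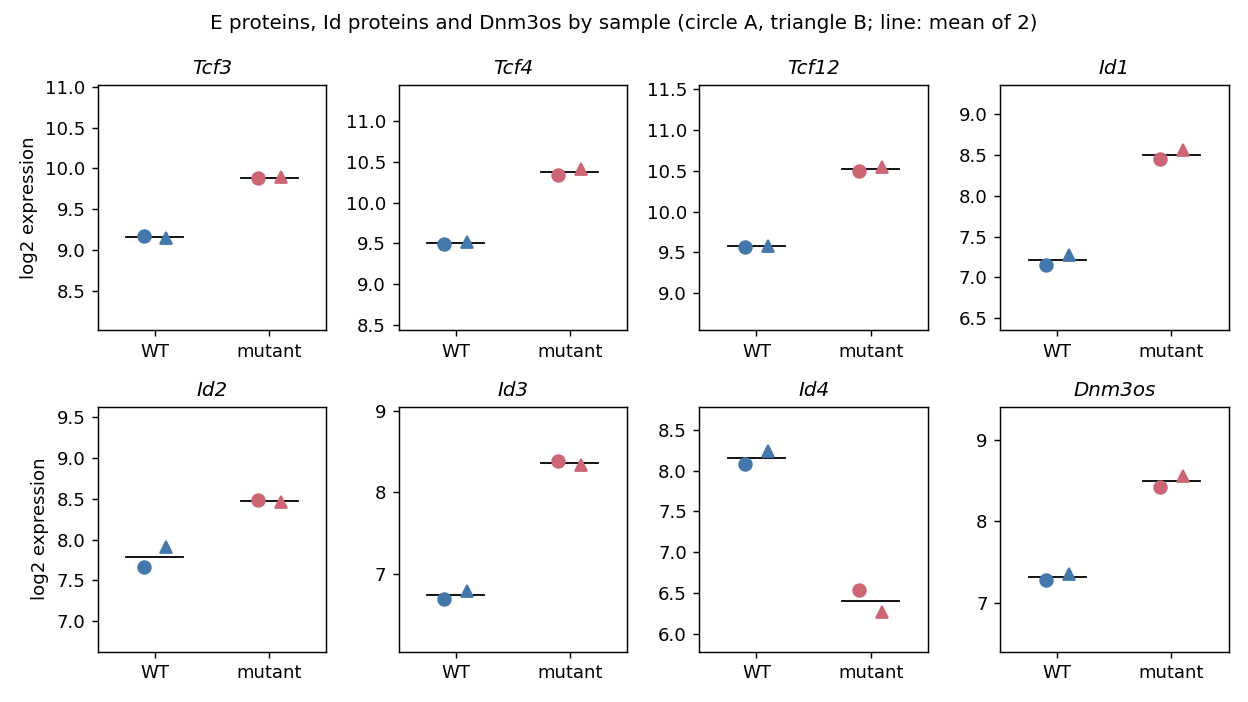
Deposited log2 expression (y axis, each panel spanning the same range) of the E protein genes, the Id genes and Dnm3os in WT and mutant samples, circles for A, triangles for B and lines for the mean of 2 samples. In each panel the groups lie apart, with Id4 alone lower in mutant.

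Non-coding RNAs tied to these factors were measured as precursor or host transcripts, not as mature microRNAs. Dnm3os, the antisense transcript that is driven by Twist1 and carries miR-199a and miR-214, read 8.42 and 8.56 in mutant and 7.28 and 7.36 in WT. It rose by 1.17 ± 0.08 (limma adjusted p = 0.000648), while Twist1 fell. In the RefSeq tables the hairpins Mir199a-2 and Mir214 lie inside Dnm3os on its chromosome, chromosome 1. The microRNAs it carries are shown first below, and the miR-200 family, which represses Zeb1 and Zeb2 and is repressed by them, second. Capitals mark the seed, bases 2 to 8.
miR-199a-5p: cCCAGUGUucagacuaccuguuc
miR-199a-3p: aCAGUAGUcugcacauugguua
miR-214-3p: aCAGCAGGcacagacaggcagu
miR-200b-3p: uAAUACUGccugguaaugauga
miR-200c-3p: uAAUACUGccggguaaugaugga
miR-200a-3p: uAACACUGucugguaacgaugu
miR-141-3p: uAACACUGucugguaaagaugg

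The miR-200 family falls into a pair of seed groups, AAUACUG for miR-200b and miR-200c and AACACUG for miR-200a and miR-141. The row of Mir200a read 5.93 and 6.24 in mutant and 5.32 and 5.36 in WT, a rise of 0.745 ± 0.12 (limma adjusted p = 0.00392) close to the dim level. It stood at 0.37 after quantile normalization, and genes of its level had a median difference of 0.385 on the deposited values. Mir200b, from the same chromosome, differed by 0.35 ± 0.14 and Mir200c and Mir141 by 0.20 and 0.135, all 3 below the dim level and uncalled. Of 10 non-coding rows measured, 2 rose, 0 fell and 8 did not pass on both scalings, and 6 had means below the dim level. Mir199a-1, the other miR-199a locus, differed by 0.27 ± 0.10 and was not called.

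Among 14 measured relatives of the Snail, Twist and Prrx families, 1 rose, 1 fell and 12 did not pass on both scalings. Tcf21, a helix-loop-helix factor of lung mesenchyme and lipofibroblasts, read 4.55 and 4.76 in mutant and 6.85 and 6.51 in WT. It fell by 2.025 ± 0.14 (limma adjusted p = 0.00063), with both mutant values below the dim level. Alx4, a paired-type homeodomain factor, rose by 0.83 ± 0.10 (limma adjusted p = 0.002), and by 0.46 after quantile normalization. Genes of its level had a median difference of 0.38 on the deposited values. The third Snail gene, Snai3, differed by 0.44 and by 0.06 after quantile normalization, where it was not called.

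Proteins that act with or on Snail and Twist were measured as a further pair of lists. Of 12 corepressors and chromatin partners 3 rose and 0 fell. Kdm1a (LSD1), the demethylase recruited by the SNAG region of Snail, rose by 0.71 ± 0.07 (limma adjusted p = 0.00106), with 9.05 and 9.01 in mutant against 8.32 in both WT samples. Its partner Rcor1 (CoREST) rose by 0.34 and the methyltransferase gene Ehmt2 (G9a) by 0.365, both uncalled on median-centred columns. Of 11 regulators of protein stability 1 rose and 1 fell. Prkd1, a kinase that phosphorylates Snail, fell by 1.165 ± 0.08 (limma adjusted p = 0.00059), from 8.29 and 8.21 in WT to 7.03 and 7.14 in mutant. Mdm2, a ubiquitin ligase, rose by 0.34 ± 0.07, also uncalled on median-centred columns. The Snail-degrading kinase and ligase genes Gsk3b (0.22), Btrc (-0.01), Fbxl14 (0.035) and Fbxl5 (0.09) were not called on both scalings.

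Among 32 measured epithelial genes and epithelial-state factors, 5 rose, 3 fell and 24 did not pass on both scalings, and 11 had means below the dim level. Only some of these are classic repression targets of the transition factors, such as Cdh1, so the counts do not describe targets alone. Cdh1 (E-cadherin) read 5.26 and 5.29 in mutant and 4.72 and 4.68 in WT, called on the deposited values (0.575 ± 0.07) and not after quantile normalization (0.17, limma adjusted p = 0.0893). The genes that rose most were Patj, a polarity scaffold gene, by 1.175 ± 0.08, the membrane protease gene St14 by 1.00, the plakophilin gene Pkp3 by 0.89 and the tight-junction gene Marveld3 by 0.86. After quantile normalization St14 stood at 0.64, Pkp3 at 0.57 and Marveld3 at 0.455. In WT both Marveld3 values (4.38 and 4.36) and the St14 value of sample A lay below the dim level. The list median of 0.435 lay above the 0.26 of all genes on the deposited values and at 0.07 after quantile normalization. Genes of like level had deposited median differences of 0.345 for Patj, 0.385 for St14, 0.315 for Pkp3, 0.395 for Marveld3 and 0.405 for Cdh1. These values all lie above 0.26, the median of all genes. On the quantile values taken alone, 5 list genes were called higher and 7 lower. Among the 10 lung epithelial markers only Sftpc and Sftpb rose, by 0.92 and 0.70 on the deposited values. After quantile normalization Sftpb passed narrowly (limma adjusted p = 0.0425). Sftpd, at -0.07 and uncalled on the deposited values, passed only after quantile normalization (limma adjusted p = 0.00809). Sftpc read 5.30 and 5.23 in mutant and 4.39 and 4.30 in WT, where it lay below the dim level. Sftpb read 5.80 and 6.10 in mutant and 5.25 in both WT samples. Epcam, uncalled on the deposited values, stood at -0.31 after quantile normalization (limma adjusted p = 0.0166). The part of these markers in the values of epithelial genes was not tested. The 3 list genes that fell were the polarity gene Llgl2 (-0.71, and -1.07 after quantile normalization) and the factor genes Elf5 (-0.38, and -0.78) and Klf4 (-0.34). All Elf5 values, 4.37 and 4.49 in mutant and 4.75 and 4.87 in WT, lay below the dim level. The factor gene Grhl2, which rose by 0.75, and by 0.34 after quantile normalization, also lay below it in every sample. Genes of its level had a median difference of 0.385 on the deposited values.

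Mesenchymal effector genes changed in both directions, with 5 of 20 rising, 9 falling and 6 not passing on both scalings. Vim, the intermediate filament of fibroblasts, read 12.79 and 12.74 in mutant and 12.86 and 12.88 in WT and was not called (-0.105 ± 0.07, limma adjusted p = 0.215). Acta2, Tagln and the matricellular gene Postn fell, with differences of -1.67, -1.485 and -1.215, while the tenascin gene Tnc, a target of Prrx1, rose by 1.28 ± 0.08. Cdh2 (N-cadherin), rose by 0.305 ± 0.07 on the deposited values but was uncalled on median-centred columns, where its difference vanished. The list median was -0.19 as deposited and -0.03 after quantile normalization. Of 7 smooth muscle and pericyte markers Myh11 and Actg2 fell, Cspg4 rose, Des and Rgs5 were higher on the deposited values only, and Notch3 and Kcnj8 were not called on the deposited values. The list mean was 5.76 and 5.82 in mutant and 6.05 and 6.00 in WT, and the part of these markers in the falls of Acta2 and Tagln was not tested.

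Upstream of the transition factors, 8 of 22 measured inducers rose and 5 fell. Hmga2, a chromatin protein that activates Snai1 and Twist1, read 9.84 and 9.78 in mutant and 8.49 and 8.43 in WT, a rise of 1.35 ± 0.07 (limma adjusted p = 0.000376). Ets1 rose by 0.79 ± 0.09, the receptor gene Notch1 by 0.705 ± 0.08 and the AP-1 gene Fosl1 by 0.515 ± 0.07. After quantile normalization Notch1 stood at 0.43 and Fosl1 at 0.23. Of the ligands Tgfb1 rose by 0.495 and Tgfb2 fell by 0.43, with -0.785 after quantile normalization. Tgfb3 was higher on the deposited values only (0.24). The Notch ligand gene Jag1 fell by 0.43, with -0.62 after quantile normalization. The other genes that fell were Smad2 (-0.40), Fosl2 (-0.31) and Hif1a (-0.285). Smad4, Smad3 and the receptor gene Tgfbr2 also rose, by 0.38, 0.315 and 0.28. Their differences were 0.37, 0.27 and 0.32 after quantile normalization. On median-centred columns Fosl1, Tgfb1, Smad4, Smad3, Tgfbr2 and the T-box gene Tbx3, named next, were not called. Of 9 further factors known to induce the transition, 2 rose and 1 fell. The T-box genes Tbx2 and Tbx3 rose by 0.67 ± 0.08 and 0.485 ± 0.07, and the forkhead gene Foxc1 fell by 0.33 ± 0.07, with -0.66 after quantile normalization.

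**Figure D4:**
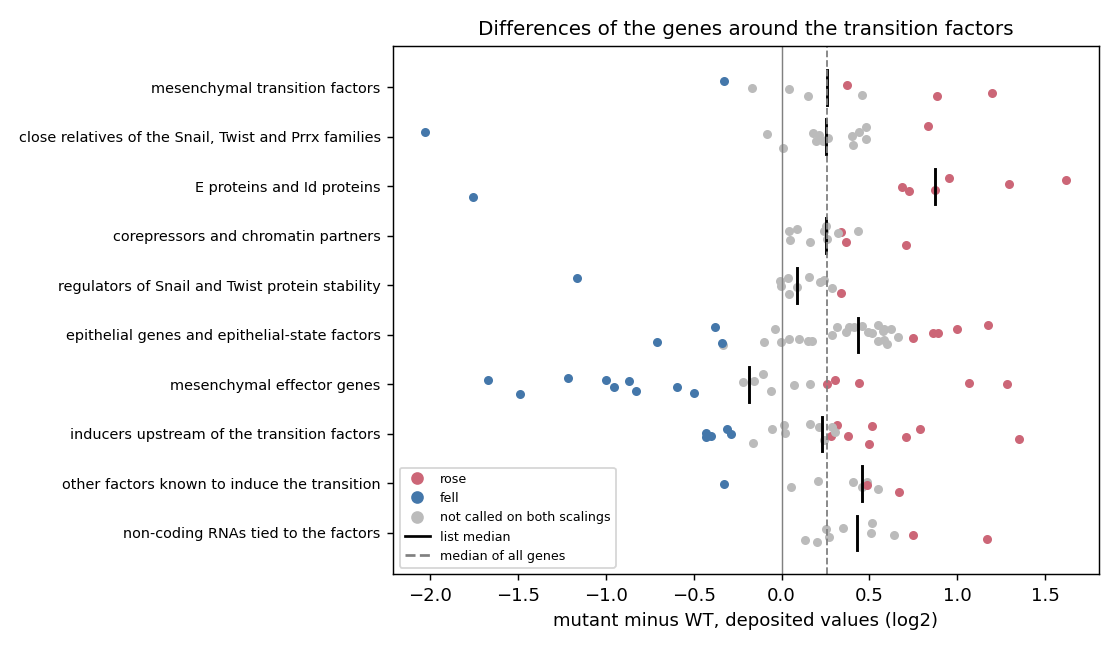
Difference mutant minus WT on the deposited values (x axis, log2) of each gene in the member list and in 9 lists around it, coloured by whether it rose or fell on both scalings, with black bars at list medians and a dashed line at the median of all genes, 0.26. The E protein and Id list lies farthest right at 0.87 with Id4 far left, and mesenchymal effector genes lie left at -0.19.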

How the data were processed

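The authors deposited log2 expression values, read as log2 from their range. Per the submitters' processing notes the Transcriptome Analysis Console was used; how it corrected background and normalized the columns is not given in the sources used here. Of 28944 rows, 21789 carry exactly 1 symbol, 1621 several and 5534 none. Symbols were updated through gene IDs (21698 rows matched, assembly GRCm38.p6), and for 999 genes with several rows the row with the highest mean was kept, which left 19938 genes. The dim level, 5.15, is the 95th percentile of 1205 olfactory and vomeronasal receptor rows. The test for each gene was that of limma 3.58.1 under R 4.3.3 (lmFit, eBayes, group as the only term, two-sided, Benjamini-Hochberg over all genes, threshold 0.05), a fit with 2 residual degrees of freedom, after a check on simulated data. For arrays, their number limits the precision.

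Named genes are all members and, of each of 9 lists, up to 4 genes called on both scalings by size, or the 2 largest differences where under 2 were called. Other list genes were named after their values were seen. The members and lists were chosen with earlier results of these data known. Listed genes without a row are not analysed here. The A minus B differences of the groups correlated at 0.0132 over genes, so the letters were not taken as pairs. Tables and plots used pandas 2.3.3 and matplotlib 3.10.9 in Python 3.11.15. The identity of the mutant allele is not reported here.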

Additional observations from a re-analysis of the deposited data

How the results depend on the processing

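The members' directions held under every alternative run except for Zeb1, at -0.155 on median-centred columns, and Zeb2, at -0.07875 after quantile normalization, -0.0905 after cyclic loess and -0.26 on median-centred columns. Median centring left 2 members higher and 3 lower, with Twist2 at 0.065, Prrx2 at 0.15 and Prrx1 at -0.475, and 4112 genes higher and 5905 lower over all genes. Prrx2 lost its call after quantile normalization (0.2313) and cyclic loess (0.2225). An eBayes trend called Zeb1 (0.15) and Prrx1 (-0.17) as well, making 2 members lower. Genes called higher and lower numbered 9991 and 2381 as deposited, 4485 and 4861 after quantile normalization, 4533 and 4933 after cyclic loess, and 4459 and 2298 on both scalings. With an added difference of at least 1 they numbered 728 and 257, with 1 member higher, Snai2, and 0 lower. With samples left out in turn the counts ran from 0 to 4623 higher and from 0 to 1160 lower, and those of members from 0 to 3 and from 0 to 1. Single differences then ran from 0.81 to 0.96 for Snai1, 1.14 to 1.25 for Snai2, -0.37 to -0.28 for Twist1, 0.31 to 0.43 for Twist2 and 0.315 to 0.595 for Prrx2, each with lost calls. The letter as a replicate block gave 8350 genes higher and 1910 lower and changed no member's call. The cause of these moves was not tested, beyond the fewer samples of the fits that leave one out. Of the 28 genes the rule names from lists, 5 lost their call on median-centred columns, 6 without mutant A, 10 without mutant B and all 28 without either WT sample, and 0 turned direction under any alternative run. Dim rows, with 1 group or both near the dim level, limit what can be read from Tcf21 and the epithelial and microRNA genes.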
